A study of Mus musculus with 2 samples.

Results

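The HoxC cluster is a row of 9 homeobox genes on mouse chromosome 15, Hoxc4, Hoxc5, Hoxc6, Hoxc8, Hoxc9, Hoxc10, Hoxc11, Hoxc12 and Hoxc13, out of 21911 protein-coding genes in the annotation. They were taken by name, as a set whose H3K27me3 peaks were already known to stop inside the cluster. The position of the peaks therefore chose them, and the values below describe the cluster without any test. The peaks came from chromatin immunoprecipitation and sequencing of histone H3 trimethylated at lysine 27 (H3K27me3) in MEL cells, an immortalized mouse erythroleukaemia line that the labels call a leukemia line and an analog of K562. The series holds 1 group of 2 biological replicates, with no treatment, no genotype contrast and no other cell type. Both replicates carry the same biosample number and were called against the same control library, so their spread may be in part technical, and age, sex and developmental stage are unknown or were not collected.

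H3K27me3 is placed by Polycomb repressive complex 2 and is a mark of silenced developmental genes. Hox genes are among its best known targets: they encode transcription factors that give cells their position along the body axis, and their order on the chromosome follows the order of their expression domains from tail to head. Genes at the Hoxc13 end act in the posterior trunk, hindlimb and skin appendages, and genes at the Hoxc4 end act at neck and forelimb levels. Hoxc10 to Hoxc13 are called posterior below and Hoxc4 to Hoxc9 anterior, although Hoxc9 is often counted with the posterior genes.

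All positions are on mm10 (GRCm38), 1-based, with genes on the forward strand. The cluster ran from the start of Hoxc13 at 102921103 to the end of Hoxc4 at 103036852, which is 115750 bp. Hoxc13 (ENSMUSG00000001655.6) spans 102921103 to 102928814, Hoxc12 (ENSMUSG00000050328.2) spans 102936757 to 102938609, and Hoxc11 (ENSMUSG00000001656.3) spans 102954427 to 102957708. Hoxc10 (ENSMUSG00000022484.7) spans 102966796 to 102971893, Hoxc9 (ENSMUSG00000036139.6) spans 102976439 to 102985099, and Hoxc8 (ENSMUSG00000001657.7) spans 102990607 to 102994111. Hoxc6 (ENSMUSG00000001661.5) spans 102998257 to 103011881, Hoxc4 (ENSMUSG00000075394.4) spans 103018934 to 103036852, and Hoxc5 (ENSMUSG00000022485.3) spans 102967443 to 103017429. The outermost start of Hoxc5 belongs to a non-coding transcript that begins 647 bp after the start of Hoxc10. The protein-coding transcript of Hoxc5 starts 46372 bp further on, at 103013815.

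The sequences below show the ground on which the peaks ended and on which they were strongest. They are printed 5′ to 3′ on the forward strand of GRCm38, with every CG dinucleotide in capitals. The first is the whole of the last replicated peak in the cluster, the 3 that follow are the bases around the summit of the peak with the highest −log10 q in the replicated list and in each replicate, and the last is the 120 bases before the start of Hoxc10, which lay under a peak in none of the lists.
last replicated peak, chr15:102964094-102964327: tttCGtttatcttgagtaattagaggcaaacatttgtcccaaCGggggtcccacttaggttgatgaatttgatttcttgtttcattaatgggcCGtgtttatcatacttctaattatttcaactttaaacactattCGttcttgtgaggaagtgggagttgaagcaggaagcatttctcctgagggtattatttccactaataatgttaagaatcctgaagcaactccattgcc
strongest replicated peak, chr15:102924994-102925114: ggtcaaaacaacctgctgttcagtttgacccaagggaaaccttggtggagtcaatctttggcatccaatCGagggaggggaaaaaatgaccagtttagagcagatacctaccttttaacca
strongest peak of replicate 1, chr15:102958972-102959092: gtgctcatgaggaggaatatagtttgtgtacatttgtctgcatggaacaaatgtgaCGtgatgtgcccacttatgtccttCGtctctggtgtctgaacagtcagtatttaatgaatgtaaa
strongest peak of replicate 2, chr15:102958018-102958138: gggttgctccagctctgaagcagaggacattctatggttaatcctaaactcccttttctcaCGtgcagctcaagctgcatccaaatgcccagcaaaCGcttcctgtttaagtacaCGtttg
before Hoxc10, chr15:102966676-102966795: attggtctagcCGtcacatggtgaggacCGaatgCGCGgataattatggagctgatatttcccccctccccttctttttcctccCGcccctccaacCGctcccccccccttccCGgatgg
The last replicated peak held 4 CG dinucleotides in 234 bases, and the 121 bases around the 3 summits held 1, 2 and 3. The 120 bases before Hoxc10 held 7, so the bare start past the border was denser in CG than the peaks shown.

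The values come from 4 lists: a list called on each replicate alone, a list called on both together (pooled), and the pooled peaks that the authors kept as replicated. Replicated peaks numbered 38298 and covered 0.477% of the genome, pooled peaks 69721, replicate 1 peaks 70901 and replicate 2 peaks 106995. On chromosome 15 replicated peaks covered 0.841%, replicate 1 peaks 0.993% and replicate 2 peaks 1.42%. No read counts came with the peaks, so depth is unknown and no counting interval can be given, and bases between peaks may still carry H3K27me3 below the threshold of the calling. The replicated list was derived from the other lists and is no separate measurement. The lists hold no RNA, so the cell type could be set only against H3K27me3 at erythroid genes: 1 of 13 markers had a replicated peak base within 5 kb of the start (Slc4a1, the red cell anion exchanger, with 2099 bases), beside 10.4% of all protein-coding genes. In replicate 1 it was 2 of 13, beside 15.7% of all protein-coding genes, and in replicate 2 it was 5 of 13, beside 19.8%. Besides Slc4a1, those of replicate 2 were the globin genes Hba-a1 with 387 bases and Hba-a2 with 140, Epor with 204 and Tfrc with 140. Hba-a1, Hba-a2 and Tfrc had 0 bases in replicate 1 and in the pooled list.

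H3K27me3 peaks lay over the posterior end of HoxC, with gaps, and stopped before Hoxc10. From the start of Hoxc13 to the start of Hoxc10, 45693 bp, replicate 1 peaks covered 34.5% of the bases and replicate 2 peaks 35.6%, a mean of 35.1% ± 0.797 (SD, n = 2). Over the 70057 bp from the start of Hoxc10 to the end of Hoxc4, 0 peaks were found in any of the 4 lists. Over the whole cluster the covered share was 13.7% in the replicated list, 15.6% in the pooled list, 13.6% in replicate 1 and 14.1% in replicate 2, all of it in the posterior stretch.

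**Figure D1:**
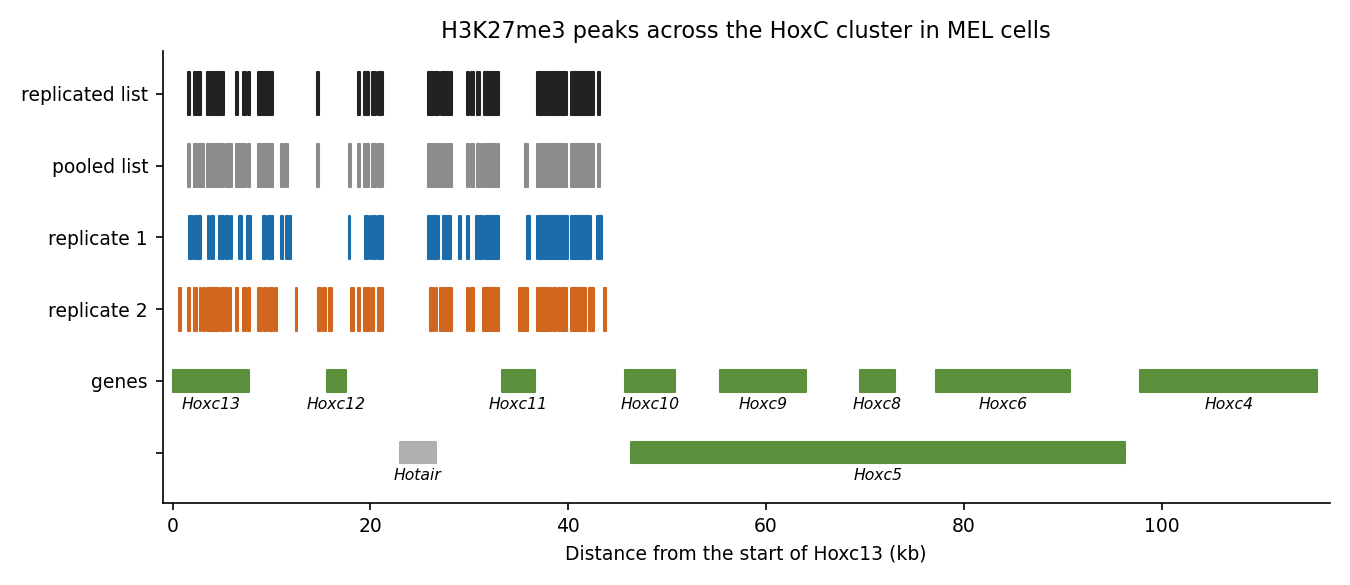
H3K27me3 peaks (blocks) in each of the 4 lists along the HoxC cluster, by distance in kb from the start of Hoxc13, with gene bodies below in green and the non-coding gene Hotair in grey. Peaks run from Hoxc13 to shortly before Hoxc10 in every list, and the 70057 bp from the start of Hoxc10 to the end of Hoxc4 hold none.

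Gene by gene, the covered bases within 5 kb of the start ranged from 1285 to 4623 at Hoxc13, Hoxc12, Hoxc11 and Hoxc10 over the 4 lists, and were 0 at Hoxc9, Hoxc8, Hoxc6 and Hoxc4. Hoxc13, which is required for hair and nail differentiation, had 3445 bases under peaks in the 10 kb centred on its start in the replicated list, 4108 in the pooled list, 2802 in replicate 1 and 4623 in replicate 2. It was also the only member with a replicated peak in its body, where 2852 of 7712 bases (37.0%) were covered. The pooled list covered 50.5% of the body, replicate 1 37.9% and replicate 2 47.0%, so the own list of replicate 2 was the higher of the pair by both measures. Its start itself was bare: the nearest replicated peak ended 1173 bases before it and the next began 1602 bases after it. Replicate 2 alone had a peak within 1 kb of the start, of 154 bases in an exon, with a −log10 q of 0.253.

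Hoxc12, the next posterior gene, carried less. It had 1285 bases under replicated peaks within 5 kb of the start, 1909 under pooled peaks, 1592 in replicate 1 and 2145 in replicate 2. Its body had no base under a peak in the replicated list, the pooled list or replicate 1, and 269 bases in replicate 2 from a peak with a −log10 q of 1.35. The nearest replicated peak lay 810 bases before the start and was weak, at 102935741 to 102935947 with a score of 3.14 and a −log10 q of 0.494. Within 1 kb of the start replicate 1 had 0 bases and replicate 2 had 855, so the replicates did not share a peak at this start.

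Hoxc11, which acts in hindlimb and kidney development together with its paralogues, had the most covered bases near its start of the 9 genes in replicate 1 and in the pooled and replicated lists. The counts within 5 kb were 3789 in the replicated list, 4227 in the pooled list, 4072 in replicate 1 and 3895 in replicate 2, a mean of 3983.5 ± 125 bases over the replicates (SD, n = 2). Most of this lay outside the gene. The body had 0 bases in the replicated list, 269 in the pooled list, 278 in replicate 1 and 601 in replicate 2, and the replicates shared 21 of the 858 body bases that either covered. Within 1 kb of the start the lists came close to each other, with 579 replicated, 579 pooled, 576 replicate 1 and 555 replicate 2 bases, and the nearest replicated peak ended 362 bases before the start.

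Hoxc10, which patterns lumbar vertebrae and lumbar motor neurons, sat at the border. It had 2069 bases within 5 kb of the start in the replicated and pooled lists, 2148 in replicate 1 and 1812 in replicate 2. All of them lay before the start, and neither the body nor the 1 kb on either side of the start held a peak base in any list. Hoxc9, which sets thoracic motor neuron identity, Hoxc8, which patterns thoracic skeleton and brachial motor pools, and Hoxc6, which marks forelimb-level motor neurons, had 0 bases in the body and 0 within 5 kb of the start in every list. The same held for Hoxc4, a cervical gene, at both of its annotated protein-coding starts.

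Hoxc5, which acts at cervical levels and in phrenic motor neurons, was anterior by position of its coding transcript and yet was counted with the marked genes. Its outermost start had 1422 bases within 5 kb in the replicated and pooled lists, 1501 in replicate 1 and 1165 in replicate 2, all before the start. These bases belong to the same peaks before Hoxc10. Around the start of the protein-coding transcript of Hoxc5 the count was 0 in every list, as was the count over the body.

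**Figure D2:**
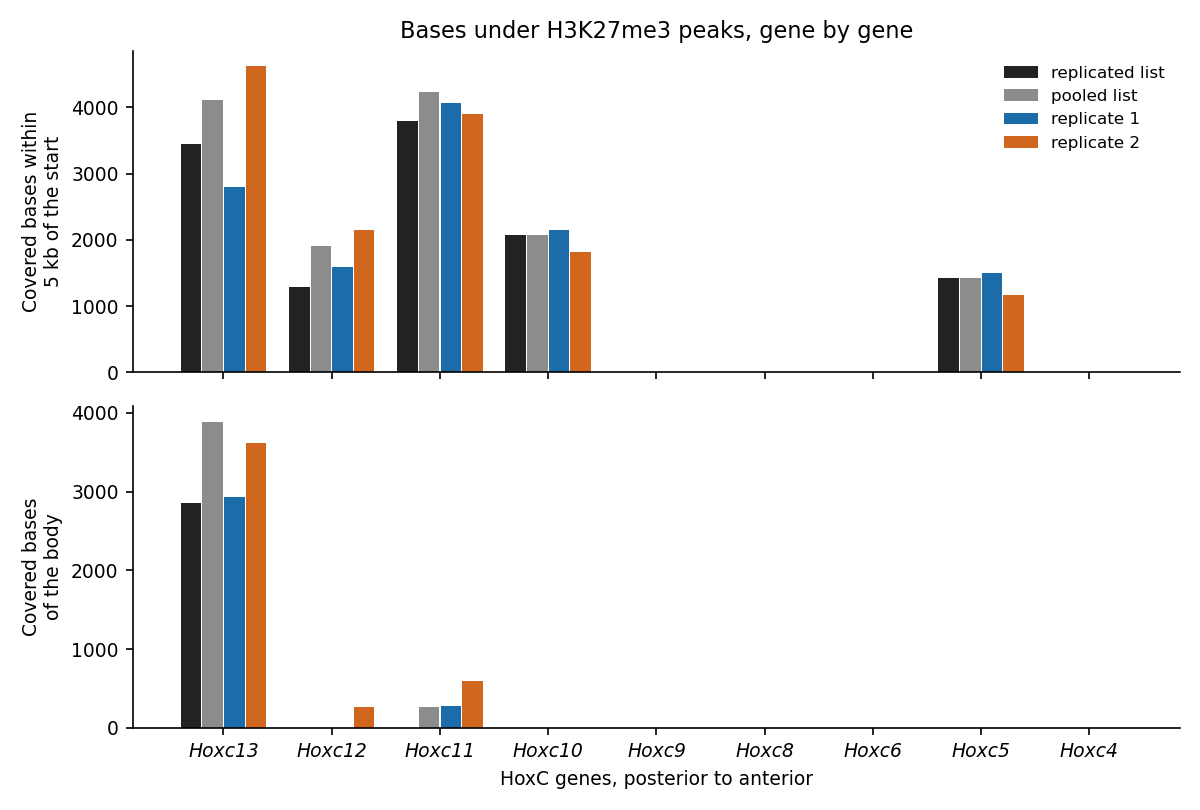
Bases under H3K27me3 peaks within 5 kb of each gene's outermost start (top) and in the gene body (bottom), for the 9 HoxC genes from posterior to anterior and in each of 4 peak lists (bars). Hoxc13 to Hoxc10 stand between 1285 and 4623 bases in the top panel, Hoxc9, Hoxc8, Hoxc6 and Hoxc4 are at 0, and the Hoxc5 bars come from the start of its non-coding transcript.

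Counted over the cluster, 5 of 9 HoxC genes had a peak base within 5 kb of the start in each of the 4 lists. Over all protein-coding genes the share was 10.4% in the replicated list, 14.2% in the pooled list, 15.7% in replicate 1 and 19.8% in replicate 2. The cluster was chosen for these peaks, so nothing is read from the difference. In the body, 1 of 9 genes had a replicated peak base (Hoxc13), 2 had a pooled one, 2 had one in replicate 1 and 3 in replicate 2, beside 11.5%, 15%, 16.4% and 20.4% of all protein-coding genes. Within 1 kb of the start the counts were 2 of 9 in the replicated list (Hoxc12 and Hoxc11), 2 in the pooled list, 1 in replicate 1 (Hoxc11) and 3 in replicate 2 (Hoxc13, Hoxc12 and Hoxc11), beside 3.0%, 4.48%, 4.46% and 6.28% of all genes. Hoxc11 was therefore the member with a peak within 1 kb of its start in every list.

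Ranked over the 21911 genes by replicated bases within 5 kb of the start, Hoxc11 stood at 49, Hoxc13 at 62, Hoxc10 at 217, Hoxc5 at 404 and Hoxc12 at 463. In replicate 1 the ranks were 30 for Hoxc11, 99 for Hoxc13 and 200 for Hoxc10. In replicate 2 they were 24 for Hoxc13, 53 for Hoxc11 and 405 for Hoxc10. Hoxc11 and Hoxc13 were thus the highest of the cluster in both replicates, in opposite order. Of the 12010 replicated bases summed over the 9 windows, 88.2% belonged to the posterior genes, a sum that counts a base again where windows overlap, and the remainder was that of Hoxc5.

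The border itself lay between Hoxc11 and Hoxc10 in every list. The last replicated peak, which is also the last pooled peak, ran from 102964094 to 102964327. It ended 6619 bases after the end of Hoxc11, 2469 bases short of the start of Hoxc10 and 72525 bases before the end of Hoxc4. Replicate 1 ended with a peak at 102964027 to 102964552, 2244 bases short of Hoxc10, and replicate 2 with a peak at 102964683 to 102964961, 1835 bases short of it. The last peak's end thus differed by 409 bases between the replicates and by 634 over the 4 lists, less than the distance that separated it from Hoxc10 in each.

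These last peaks were mostly weak, and those of the replicates did not overlap. The last replicated peak had a score of 2.98, a −log10 p of 3.53 and a −log10 q of 0.533, and no replicate 2 peak overlapped it. That of replicate 1 had a score of 3.84, a −log10 p of 6.17 and a −log10 q of 2.58. That of replicate 2 had a score of 3.0, a −log10 p of 3.53 and a −log10 q of 0.80. Counting only peaks with a −log10 q of 2 or more, the distance from the last peak to the start of Hoxc10 was 3724 bases in the replicated and pooled lists, 2244 in replicate 1 and 3101 in replicate 2. By either count the edge fell in the same intergenic stretch of 9087 bp.

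In steps of 1 kb towards Hoxc10 the cover was uneven and then ended. In the sixth kb before the start 612 bases lay under replicated peaks, 679 under replicate 1 peaks and 572 under replicate 2 peaks. In the fifth kb all 1000 bases lay under peaks in both replicates and in the replicated list. In the fourth the counts were 835 replicated, 622 replicate 1 and 533 replicate 2 bases, and in the third they were 234, 526 and 113. In the second kb only replicate 2 had any, 166 bases, and in the kb that touches the start none of these lists had a base. The last step with any cover was thus the third in replicate 1 and the second in replicate 2.

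On the far side the gap was long. The next replicated peak after the border began at 103102426, which left 138098 bp without a peak and lay 65574 bases beyond the end of Hoxc4. In replicate 1 the gap was 137269 bp and in replicate 2 it was 114355 bp. Stretches of 70057 bp, the length from the start of Hoxc10 to the end of Hoxc4, often held no peak in these lists. Of 38894 such windows tiled over the genome, 83.5% held no replicated peak and 78.3% no pooled peak. No replicate 1 peak lay in 75.7% of them and no replicate 2 peak in 69.0%. On chromosome 15 alone the shares were 77.6%, 72.4%, 69.0% and 60.1%. Most windows of that length thus lacked a peak, as the anterior genes did. The windows were tiled over whole chromosomes without matching for genes or starts, so they do not show what is usual over Hox genes. No share was computed for windows as long as the gaps themselves.

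**Figure D3:**
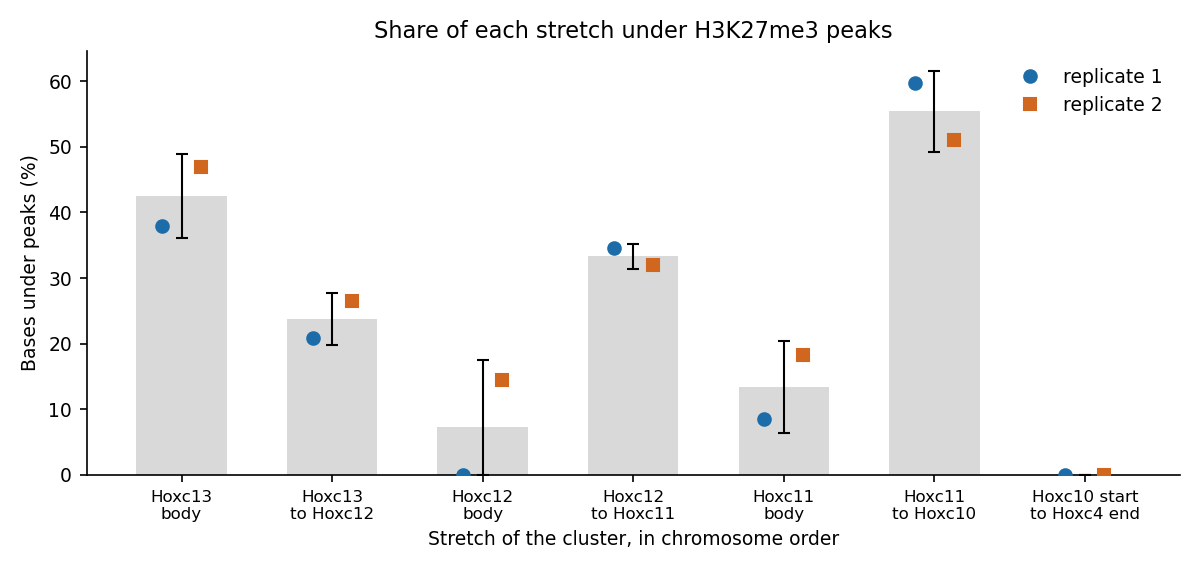
Share of bases under H3K27me3 peaks in 7 consecutive stretches of the HoxC cluster, in percent, as the mean of both replicates (bars), the SD over n = 2 (error bars) and each replicate's own value (points). The stretch from Hoxc11 to Hoxc10 is the highest in both replicates at 59.8% and 51.1%, and the stretch from the start of Hoxc10 to the end of Hoxc4 is at 0.

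Between the genes of the cluster the cover was higher nearer the border and then ended. From Hoxc13 to Hoxc12 it was 20.9% in replicate 1 and 26.5% in replicate 2 (mean 23.7% ± 3.95, SD, n = 2). From Hoxc12 to Hoxc11 it was 34.6% and 31.9% (33.3% ± 1.91), and from Hoxc11 to Hoxc10 it was 59.8% and 51.1% (55.4% ± 6.15). The 3 intergenic stretches kept this order in both replicates without overlap. The order did not extend outside the cluster. Between Hoxc13 and the nearest protein-coding gene before it, the cover was 35.4% in replicate 1 and 42.5% in replicate 2. Both values were above those from Hoxc13 to Hoxc12 and from Hoxc12 to Hoxc11. The bodies of Hoxc12, with 0% in replicate 1 and 14.5% in replicate 2, and of Hoxc11, with 8.47% and 18.3%, lay below every intergenic stretch in both replicates. The body of Hoxc13 was the exception among the bodies, with 37.9% and 47.0%.

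In the replicated list the peaks between Hoxc11 and Hoxc10 were few and broad for narrow peaks. Replicate 1 had 6 peaks in this stretch and replicate 2 had 9, and those of replicate 2 were 176 to 1471 bp wide. The replicated list had 5 there, which covered 59.9% of the stretch. The first, at 102957953 to 102959394, had a score of 3.29, a −log10 p of 5.31 and a −log10 q of 1.51. The second, at 102959474 to 102961001, had a score of 5.18, a −log10 p of 8.41 and a −log10 q of 3.33. The third, at 102961390 to 102963072, was the widest replicated peak of the cluster at 1683 bp, with a score of 5.73, a −log10 p of 10.6 and a −log10 q of 4.72. The fourth, at 102963134 to 102963691, had a score of 4.02, a −log10 p of 5.78 and a −log10 q of 1.88, and the fifth was the weak last peak. Both replicates had their strongest peaks of the cluster in this stretch, the last before the border.

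In replicate 1 the highest −log10 q of the cluster, 6.45, belonged to a peak at 102957955 to 102959375 with a score of 6.18 and a −log10 p of 11.8. In replicate 2 the highest, 6.26, belonged to a peak at 102957961 to 102958838 with a score of 6.41 and a −log10 p of 12.2. These peaks overlapped each other in the bases directly after the end of Hoxc11. By score other peaks of the same stretch came first, with 6.91 in replicate 1 at 102959469 to 102960255 and 6.68 in replicate 2 at 102959562 to 102959853. A peak in the intron of Hoxc13 also had a higher score than the peak with the highest −log10 q, with 6.36 in replicate 1 and 6.58 in replicate 2. The pooled and replicated lists placed their strongest peak elsewhere, in the intron of Hoxc13 at 102924924 to 102926304, with a score of 6.43, a −log10 p of 10.7 and a −log10 q of 4.82. In the replicated list 71 of 38298 peaks had a −log10 q as high.

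**Figure D4:**
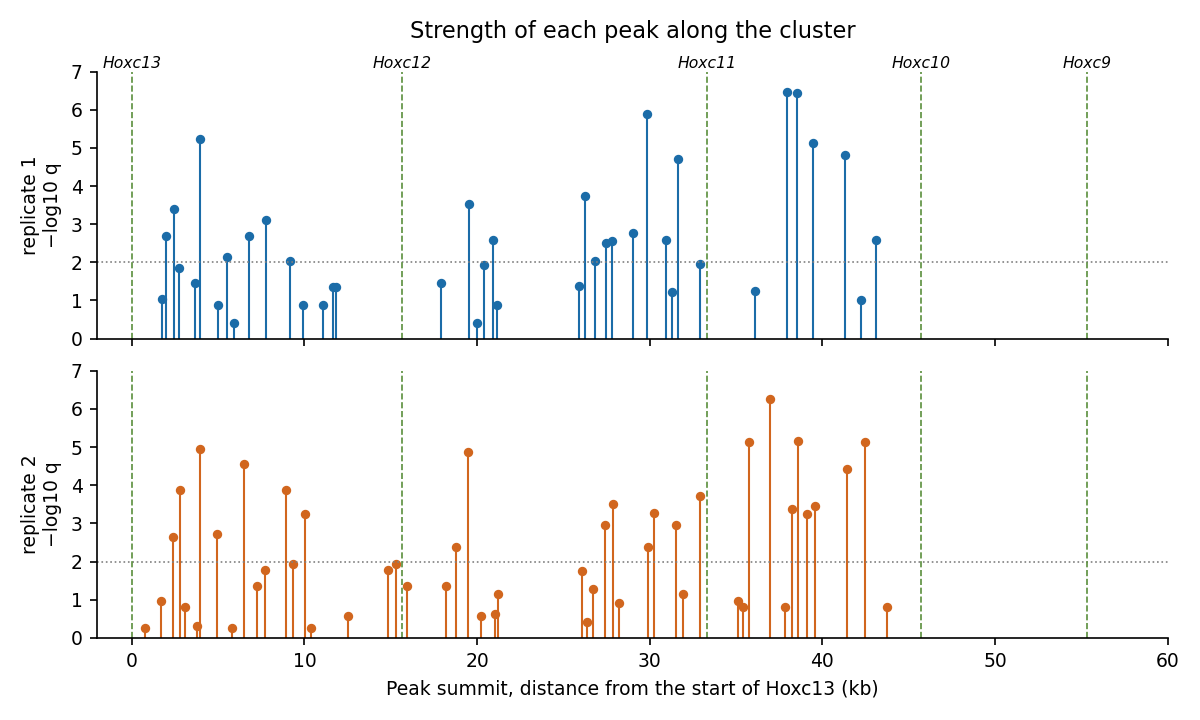
The −log10 q of each H3K27me3 peak at its summit, by distance in kb from the start of Hoxc13, in replicate 1 (top) and replicate 2 (bottom), with gene starts as dashed lines and a −log10 q of 2 as a dotted line. The highest peaks of both replicates, at 6.45 and 6.26, lie between Hoxc11 and Hoxc10, and no peak lies past the start of Hoxc10.

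By gene, the peaks within 5 kb of the start differed in strength as follows. Hoxc13 had 8 replicated peaks with a median score of 4.18 and a median −log10 q of 1.59, of which 3 had a −log10 q of 2 or more. Hoxc12 had 4 with a median score of 3.33 and a median −log10 q of 0.728, of which 1 passed that value. Hoxc11 had 6 with a median score of 3.51 and a median −log10 q of 1.5, of which 1 passed it. Hoxc10 had 3 with a median score of 4.02 and a median −log10 q of 1.88, of which 1 passed it. Near every posterior start the replicated list therefore held 1 or more peaks above that value among weaker ones.

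In the replicates' own lists the order of the genes by peak strength was another one than by covered bases. At Hoxc11 the median −log10 q was 2.68 over 8 peaks in replicate 1 and 2.96 over 11 peaks in replicate 2. At Hoxc10 it was 2.58 and 4.42 over 3 peaks each. At Hoxc12 it was 1.35 over 7 peaks and 1.57 over 8, and at Hoxc13 it was 1.34 over 12 and 1.17 over 16. In both replicates the peaks near Hoxc11 and Hoxc10 thus had higher medians than those near Hoxc13 and Hoxc12.

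Peaks of the cluster were wider and stronger than those of the lists as a whole. Their median width was 324 bp against 278 bp for all replicated peaks, 299.5 against 182 bp in replicate 1 and 279 against 182 bp in replicate 2. A −log10 q of 2 or more was reached by 8 of 31 cluster peaks in the replicated list (25.8%), against 10.9% of all replicated peaks. In replicate 1 it was reached by 22 of 40 (55.0%), against 30.8% of all, and in replicate 2 by 23 of 49 (46.9%), against 12% of all. The cluster was chosen on these peaks, so the contrast is a description.

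The replicates placed their peaks over the same stretch but not over the same bases. Of the replicate 1 peaks in the cluster 27 of 40 (67.5%) overlapped a replicate 2 peak, against 44.9% of all replicate 1 peaks. Of the replicate 2 peaks 33 of 49 (67.3%) overlapped a replicate 1 peak, against 29.8% of all. By bases, 9428 of the 22635 covered by either replicate were covered by both (41.7%). This share was 64.0% between Hoxc11 and Hoxc10, 43.6% between Hoxc12 and Hoxc11, 31.3% over the body of Hoxc13 and 23.7% between Hoxc13 and Hoxc12. The agreement was closest in the stretch next to the border and lowest at the bodies of Hoxc11, at 2.45%, and Hoxc12, at 0. The share covered by replicates 1 and 2 also differed, at 59.8% and 51.1% next to the border and 8.47% and 18.3% at the body of Hoxc11. None of these overlaps was adjusted for the share covered.

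Of the 31 replicated peaks in the cluster, 23 overlapped a peak of both replicates, 2 overlapped replicate 1 alone and 6 overlapped replicate 2 alone. The same counts were not made over all replicated peaks, so nothing is read from them. The authors' replicated list kept 77.5% of the 40 pooled peaks of the cluster, against 54.9% of all pooled peaks. The 9 that were not kept had a −log10 q of at most 1.10 and included the only pooled peak in the body of Hoxc11.

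Peaks and CG dinucleotides took turns along the posterior stretch. CG content is given as observed over expected, the number of CG dinucleotides over the number that the C and G content alone would give. From Hoxc13 to Hoxc10 this ratio was 0.19 under replicated peaks and 0.467 outside them. It was 0.197 and 0.465 with replicate 1 peaks, 0.279 and 0.436 with replicate 2 peaks, and 0.204 and 0.478 with pooled peaks. GC content was 45.2% under replicated peaks and 50.7% outside them, and all replicated peaks of the genome together had 42.9%. The share of repeats was 14.4% and 15.7%. In every list the peaks thus lay on the CG-poor part of the stretch, while repeats hardly differed in the replicated list. The part of base composition in this pattern was not tested.

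**Figure D5:**
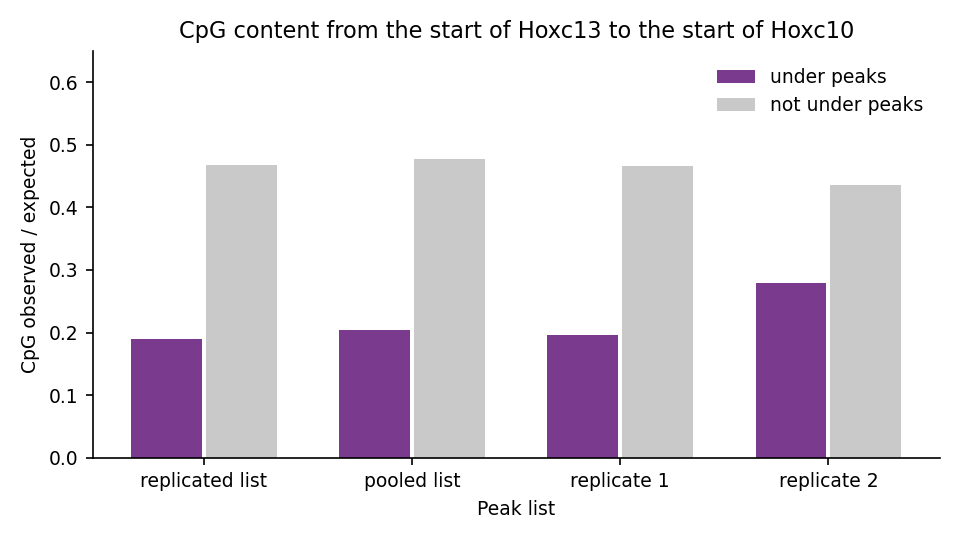
CG dinucleotides observed over expected between the start of Hoxc13 and the start of Hoxc10, for bases under peaks (purple) and not under peaks (grey), in each of 4 lists. The ratio lies between 0.19 and 0.279 under peaks and between 0.436 and 0.478 outside them.

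The starts of Hoxc13, Hoxc12 and Hoxc11 lay in such bare, CG-rich gaps. The replicated peaks left 2774 bp free around the start of Hoxc13, with a ratio of 0.635 and 58.5% GC. They left 3943 bp around the start of Hoxc12, with a ratio of 0.581 and 53.9% GC, and 3887 bp around that of Hoxc11, with 0.583 and 56.1% GC. The start of Hoxc10 lay in the long gap past the border, 138098 bp with a ratio of only 0.272 and 47.9% GC. Replicate 2 narrowed the gap at Hoxc12 to 313 bp, which replicate 1 left at 5830 bp. In the 1 kb centred on the outermost start the ratio was 0.703 at Hoxc13, 0.893 at Hoxc12, 0.753 at Hoxc11 and 0.594 at Hoxc10. Among the anterior genes it was 0.651 at Hoxc9 and 0.679 at Hoxc8, 0.535 at the outermost and 0.484 at the protein-coding start of Hoxc6, 0.531 at the protein-coding start of Hoxc5, and 0.285 and 0.413 at the starts of Hoxc4. The outermost starts of Hoxc9 and Hoxc8 thus lay in the range of the posterior starts, and the others named lay below it. The second protein-coding start of Hoxc9, at 0.522, and a second start of Hoxc8, at 0.203, also lay below that range. The posterior stretch and the stretch from Hoxc10 to Hoxc4 had similar composition, with 48.8% and 49.2% GC, ratios of 0.387 and 0.338, and 15.2% and 16.4% repeats.

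The core motif of CTCF, a zinc-finger protein that binds at many chromatin boundaries, was searched on both strands as a motif of 12 letters with ambiguity codes. It had 0 matches between Hoxc13 and Hoxc10, 0 between Hoxc10 and Hoxc4 and 0 between the last replicated peak and Hoxc10. Over the genome 18.1%, 25.6% and 1.16% of windows of those lengths held a match. No match says only that these letters are not in the windows.

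Other genes inside the cluster followed the border. Hotair, a non-coding RNA on the reverse strand between Hoxc12 and Hoxc11 whose human counterpart is known to bind Polycomb repressive complex 2, spans 102944062 to 102947730. It had 3059 bases within 5 kb of its start in the replicated list, 3228 in the pooled list, 2747 in replicate 1 and 2200 in replicate 2. Its body was covered over 20.5%, 20.5%, 19.0% and 8.99%, with peaks over exon bases near its start. The small non-coding gene Gm27443 within it had 81 replicated bases, and Gm27337, Gm28011 and Gm27535 had none in their bodies. Past the border, the microRNA genes Mir196a-2, between Hoxc10 and Hoxc9, and Mir615, within Hoxc5, had 0 bases in the body and 0 within 5 kb of the start in every list.

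The cover did not begin at Hoxc13. In the 198924 bp between Calcoco1, the nearest protein-coding gene on that side, and Hoxc13, replicated peaks covered 41.1%, replicate 1 peaks 35.4% and replicate 2 peaks 42.5%. Between Hoxc4 and Smug1, the nearest protein-coding gene on the other side, the shares over 116437 bp were 6.0%, 7.03% and 9.14%. Calcoco1 had 262 bases within 5 kb of its start in replicate 2 and 0 in the other lists. Atp5g2 beyond it, and Smug1 and Cbx5 on the Hoxc4 side, had 0 in every list. Hoxc13, Hoxc12 and Hoxc11 thus stood at the end of a covered stretch that reached in from the intergenic region before Hoxc13. Hoxc10 lay past the last peak of that stretch, and the neighbouring protein-coding starts were bare in the replicated list.

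The other Hox clusters differed from HoxC in how many genes lay near a peak and in how many bases were covered, with no test of the difference. By replicated bases within 5 kb of the start, 5 of 9 HoxC genes had any, with a median of 1285 and a maximum of 3789. In HoxB 8 of 10 had any, with a median of 581 and a maximum of 1421, in HoxD 2 of 9, with a maximum of 452, and in HoxA 0 of 11. Over all protein-coding genes 10.4% had such a base. The counts of HoxD and HoxA rest on few genes, and nothing is read from them. In replicate 1 the counts were 5 in HoxC, 9 in HoxB, 7 in HoxD and 1 in HoxA, beside 15.7% of all protein-coding genes. In replicate 2 they were 5, 10, 4 and 0, beside 19.8%. The place of HoxD relative to HoxC in this count therefore depended on the list. The HoxC counts include Hoxc5, whose bases lie before its non-coding start and belong to the peaks before Hoxc10. The HoxC median of 1285 also depends on these bases. Around the protein-coding start of Hoxc5 there were 0, and with protein-coding starts only the replicated HoxC count was 4. In the replicated list the HoxB genes were Hoxb9 (1421 bases), Hoxb6 (1414), Hoxb3 (1121), Hoxb1 (974), Hoxb13 (655), Hoxb4 (507), Hoxb7 (475) and Hoxb8 (183), which span anterior and posterior members alike. The HoxD genes were Hoxd11 and Hoxd12, with 452 bases each.

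Set beside their paralogues, the genes of the same number in the other clusters, the posterior HoxC genes had more covered bases in every list. Against 3445 replicated bases at Hoxc13, Hoxb13 had 655 and Hoxa13 and Hoxd13 had 0. In replicate 1 the counts were 2802 at Hoxc13 against 948 at Hoxb13, and in replicate 2 they were 4623 against 682. Hoxc12 had 1592 bases in replicate 1 against 180 at Hoxd12, and 2145 against 659 in replicate 2. Hoxc11 had 4072 against 180 at Hoxd11 in replicate 1 and 3895 against 519 in replicate 2, with 0 at Hoxa11. Hoxc10 had 2148 and 1812, against 404 and 0 at Hoxd10 and 0 at Hoxa10. The order between HoxC and its paralogues was the same in both replicates at all 4 numbers. The HoxC genes were chosen for their peaks and the replicates share a biosample number and a control, so nothing is read from this order.

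Genes that act with or on Hox genes had peaks near the start about as often as all protein-coding genes. Of 9 Hox cofactors, the Pbx, Meis and Pknox homeobox genes, 1 had a replicated peak base within 5 kb of the start (Meis3, 971 bases, with 713 in replicate 1 and 1252 in replicate 2). Of 24 regulators, which include the Cdx activators and the subunits of Polycomb and Trithorax complexes, 2 had any, with 5 in replicate 1 and 3 in replicate 2. Cdx1, a caudal-type activator of Hox genes, had 1453 bases, with 1497 in replicate 1 and 1127 in replicate 2. Ezh1, a catalytic subunit of Polycomb repressive complex 2, had 658 bases, with 940 in replicate 1 and 833 in replicate 2. In the gene body, replicated peaks covered 4950 bases of the cofactor gene Pknox2, 3977 of the Polycomb gene Phc2 and 2004 of Cdx1. The replicated counts of 1 in 9 and 2 in 24 near the start are close to the 10.4% of all protein-coding genes with such a base. Over all protein-coding genes that share was 15.7% in replicate 1 and 19.8% in replicate 2.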

How the data were processed

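H3K27me3 ChIP-seq peaks of 2 MEL cell replicates, grouped from the labels, were analysed. Per the deposited text descriptions, each replicate's peaks were called on its mm10 alignments against 1 shared control, the pooled list on both, and the replicated list was derived from these lists. Aligner, peak caller and the rule for keeping a peak were not given in the sources used here. The authors deposited, per peak, a −log10 p-value, a −log10 q-value and a score of undefined meaning, which were used as given. The mm9 list was not used here.

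Covered bases were summed over the union of peaks on chromosomes 1 to 19, X and Y, with GENCODE mouse release 21 genes and the GRCm38 sequence (Python 3.11.15, numpy 2.4.6, samtools 1.23.1). A start is the outermost 5′ end of a gene, windows were 5 kb and 1 kb on each side, and 1 bp counted as overlap. The sums were tested on simulated peaks. No test was made, since there is 1 group, and p-values are the authors' per peak. Members and gene lists were chosen with earlier results of these data known. Named genes are the members, genes inside the cluster, the 2 nearest protein-coding genes on each side, and listed genes with a replicated peak base within 5 kb. Paralogues without such a base were named in addition. So were erythroid markers with a base in replicate 2, and Pknox2 and Phc2 for replicated peaks in the body. Alternatives were other lists, thresholds, joining, windows and starts.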

Additional observations from a re-analysis of the deposited data

How the results depend on the processing

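The covered share of the cluster, 13.7% in the replicated list, was 15.6% in the pooled list, 5.33% with a −log10 q of at least 2, 9.04% with the upper 50% of peaks by score, 22.8% with peaks joined within 3 kb, and 13.6% to 14.1% in the lists of single replicates. Genes with a peak base in the body numbered 2 in the pooled list and 2 to 3 in single replicates, and genes with one within 1 kb of the start 0 at the q threshold, 1 by score and 1 to 3 in single replicates. The last peak ended at 102963072 at the q threshold, 102963691 by score, and 102964552 to 102964961 in single replicates, which left 73780, 73161 and 71891 to 72300 bases to the end of Hoxc4. Body bases summed over members, 2852, were 4160 pooled, 1999 at the q threshold, 2672 by score, 7712 joined and 3204 to 4493 in single replicates. Bases within 5 kb, 12010, were 13735 pooled, 4414 at the q threshold, 8426 by score, 22606 joined and 12115 to 13640 in single replicates. The posterior share of them was 89.6% pooled, 85.7% at the q threshold, 85.9% by score, 91.7% joined and 87.6% to 91.5% in single replicates. For the alternatives of threshold and joining, fewer or longer peaks are their own construction, and otherwise the cause was not tested. The count of 5 genes within 5 kb of the start was 4 with windows of 2.5 kb and 4 with starts of protein-coding transcripts only, an alternative chosen after seeing the data, and 5 otherwise. No paired analysis was possible because the series has 1 group. With 2 replicates, narrow peaks and unknown depth, an absent peak cannot be told apart from signal below the caller's threshold.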
